A study of Homo sapiens with 18 samples.

Results

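Gene expression was compared between 3 libraries treated with H3B-8800 and 3 treated with the solvent DMSO, all labelled HCT-116, a human colorectal cancer line, and all labelled WT. The labels give 20 nM H3B-8800 for 24 h in high-glucose medium with 10% fetal bovine serum. Every gene that passed the low-count filter was taken: 14234 of the 20263 genes of the deposited table, in 6 of its 18 libraries. The other 12 libraries carry the labels MDA-MB-231 (breast cancer) and MHCC-97H (liver cancer), with 3 DMSO and 3 H3B-8800 libraries each at the same dose and time, and serve here for comparison. Nothing in the labels says that replicates were cultured separately, so p-values measure only the spread between these libraries, which may be technical.

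H3B-8800 is a small molecule that binds SF3B1, the large subunit of the SF3b complex. SF3b belongs to the U2 particle, which recognises the branch point of an intron early in splicing, and its inhibition can cause introns to be retained and exons to be skipped. The series title concerns a skipped exon of SLK, a kinase, and the glycolytic enzyme ENO1. The counts used here are summed over whole genes, so they show the level of a gene's RNA and not its splicing.

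Library totals ran from 32118665 to 38630831 counts under the HCT-116 label. Of 23 intestinal epithelium markers in the table, 6 averaged under 1 CPM (counts scaled to an equal library total) over the 6 libraries. KRT20, the keratin of intestinal epithelium, averaged 912 CPM, VIL1, the brush border protein villin, 214 CPM, and LGALS4, an intestinal lectin, 416 CPM. EPCAM, the epithelial adhesion molecule, had 16 counts in all 6 libraries together (0.0808 CPM), and CDX1 had 0 counts, which allows up to 0.0144 CPM (3 counts over the 6 libraries). FN1, the mesenchymal matrix protein fibronectin, averaged 9125 CPM, but 6 of the 18 mesenchymal markers averaged under 1 CPM. Among that list VIM, the filament protein vimentin, was at 22.1 CPM (1187 under the MHCC-97H label), TWIST1, a transcription factor, had 0 counts, and COL1A1, a collagen chain, was at 0.0372 CPM. Both lists thus held high and near-absent members, and the libraries labelled MDA-MB-231 had nearly the same values (898 CPM for KRT20, 8722 CPM for FN1). Which line the libraries hold was not tested, and they are named here by their labels.

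The response under the HCT-116 label was small. edgeR called 5 of 14234 genes at an adjusted p under 0.05 (0.0351%), namely PNKD, PSAT1, ASNS and PEX5, which rose, and SEC24C, which fell. An unadjusted p under 0.05 was reached by 655 genes, 370 higher and 285 lower. Of the 8862 genes averaging at least 10 CPM over the 6 libraries, 98.4% changed by less than 0.5 on the log2 scale, and the median standard error (SE) was 0.1. A change of at least 1 in size was fitted for 25 of these genes, of which PNKD alone was called. Without H3B-8800 replicate 1 the number of calls was 15, and without DMSO replicate 2 or replicate 3 it was 3.

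**Figure D1:**
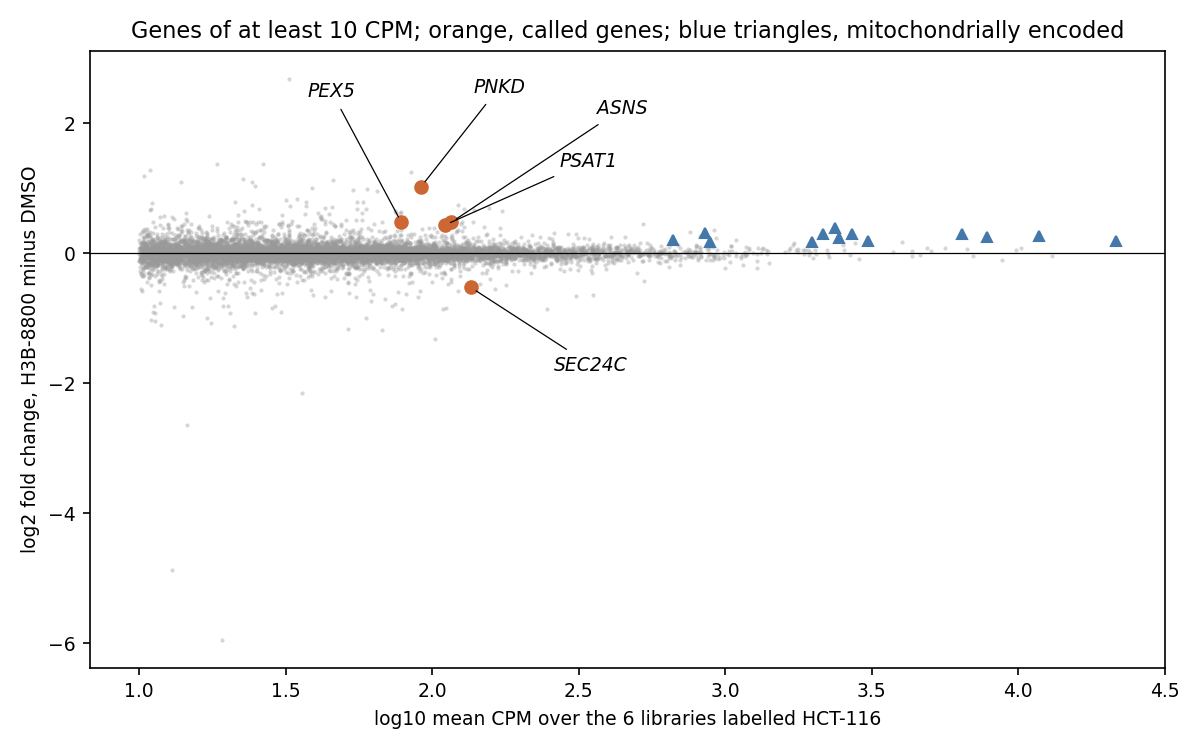
Log2 fold change (H3B-8800 minus DMSO) against the log10 mean level over the 6 libraries labelled HCT-116, for genes averaging at least 10 CPM, each grey point being a gene. The 5 called genes are orange, with PNKD highest at 1.02 and SEC24C lowest at -0.53, and the 13 mitochondrially encoded genes, blue triangles, all lie above 0.

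PSAT1 and ASNS, which make the amino acids serine and asparagine, rose. PSAT1, the aminotransferase of the serine pathway (chromosome 9, 78297143 to 78330093 on GRCh38), was at 92.0, 97.1 and 92.5 CPM in the DMSO libraries and 126.5, 130.1 and 124.0 CPM in the treated ones (CPM scaled by TMM, as for all single genes below). The 2 groups did not overlap, and the log2 fold change was 0.43 (SE 0.04, edgeR adjusted p = 0.00031). ASNS, asparagine synthetase (chromosome 7, 97852118 to 97872542), was at 92.9, 104.5 and 94.7 CPM in the DMSO libraries. After treatment it was at 134.0, 139.6 and 130.1 CPM, again above every control, with a log2 fold change of 0.47 (SE 0.06, edgeR adjusted p = 0.0025). In a fit of the 6 libraries alone, neither gene was called (edgeR adjusted p = 0.42 for PSAT1 and 0.6 for ASNS).

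PNKD, a protein with a domain related to metallo-beta-lactamases (chromosome 2, 218270392 to 218346793), had the largest change among the called genes. PNKD read 59.05, 59.98 and 62.8 CPM with DMSO against 123.1, 128.5 and 116.2 CPM with H3B-8800, a 2.02-fold difference (log2 1.02, SE 0.06, edgeR adjusted p = 5.6e-07). PNKD stayed called in the fit of the 6 libraries alone. It was also 1 of 183 genes, of 8863 averaging at least 10 CPM over the 12 libraries labelled HCT-116 or MDA-MB-231, whose 12 values fell at a pair of separate levels, that is with a gap of at least 0.7 on the log2 scale that took at least 0.6 of their range. For 133 of the 183 genes the gap ran between libraries labelled HCT-116, and PNKD alone had its gap between treated and control libraries of that label. CERS2, a ceramide synthase, is another of them, at 540.1, 294.1 and 548.1 CPM in the DMSO libraries and 548.0, 312.9 and 554.5 CPM in the treated ones. What sets those levels, and its part in the PNKD result, was not tested.

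PEX5, the receptor that brings enzymes into peroxisomes (chromosome 12, 7188685 to 7218574), was at 68.0, 65.5 and 63.9 CPM in the DMSO libraries and 92.1, 90.3 and 91.2 CPM in the treated ones. The log2 fold change was 0.47 (SE 0.07, edgeR adjusted p = 0.016). PEX5 was the only one of the 5 that was also called under the MDA-MB-231 label, where it rose from 62.1 to 97.1 CPM (0.64, SE 0.07, edgeR adjusted p = 0.00044). Among 16 peroxins tested no other member was called, and PEX3, which anchors peroxisomal membrane proteins, had a log2 fold change of -0.17. The PEX5 call was lost when any library but H3B-8800 replicate 1 was left out (edgeR adjusted p = 0.052 to 0.12). It was also lost in the fit of the 6 libraries alone, where PNKD was the only call.

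SEC24C, a cargo-binding subunit of the COPII coat that buds vesicles from the endoplasmic reticulum (chromosome 10, 73744384 to 73772161), was at 158.9, 162.2 and 159.9 CPM in the DMSO libraries. It was at 107.9, 116.7 and 107.6 CPM in the treated libraries, all below the controls (log2 fold change -0.53, SE 0.08, edgeR adjusted p = 0.027). The call was lost with relative log expression scaling (edgeR adjusted p = 0.052), with upper-quartile scaling (0.065), with the replicate number as a block (0.058) and in the fits of 12 (0.34) and 6 libraries (0.26). It was also lost when any single library but H3B-8800 replicate 2 was left out (0.062 to 0.13). Of 10 COPII coat genes SEC24C alone was called. The related subunit SEC24D had a log2 fold change of -0.21 and SEC31A, of the outer coat, 0.09. ASNS, PEX5 and SEC24C share exonic bases with another annotated gene, and the strand setting of the counting is not given in the sources used here.

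For 4 of the 5 called genes, PNKD, PSAT1, ASNS and SEC24C, the treated libraries labelled HCT-116 lay at or near the level of the MDA-MB-231 controls, and the DMSO libraries labelled HCT-116 did not. PNKD was at 110.2 to 123.5 CPM in the MDA-MB-231 DMSO libraries and 112.1 to 123.4 CPM in the treated ones, which is the level of the treated libraries labelled HCT-116. PSAT1 was at 125.5 to 126.6 CPM in the MDA-MB-231 controls, ASNS at 121.6 to 124.9 CPM and SEC24C at 107.2 to 111.8 CPM. Unlike under the HCT-116 label, SEC24C rose in fitted value with treatment under the MDA-MB-231 label, where it was not called. Between the DMSO libraries of the 2 labels, edgeR called 5 of 14234 genes (0.0351%): PNKD, PSAT1 and SEC24C, with RNF138, a ubiquitin ligase, and MYADM, a membrane protein. ASNS had an adjusted p of 0.051 in that edgeR comparison (log2 -0.34, SE 0.06). Between the treated libraries of the 2 labels, edgeR called 1 gene (0.00703%), TTYH2, a membrane protein of the tweety family. The replicate block was set within each label, with replicate 1 as its reference. Its fit compares replicate 1 levels between labels and not group means, so its calls between labels are not given here. The comparison of the DMSO libraries uses the same controls as the H3B-8800 effect, so the 2 are not independent.

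**Figure D2:**
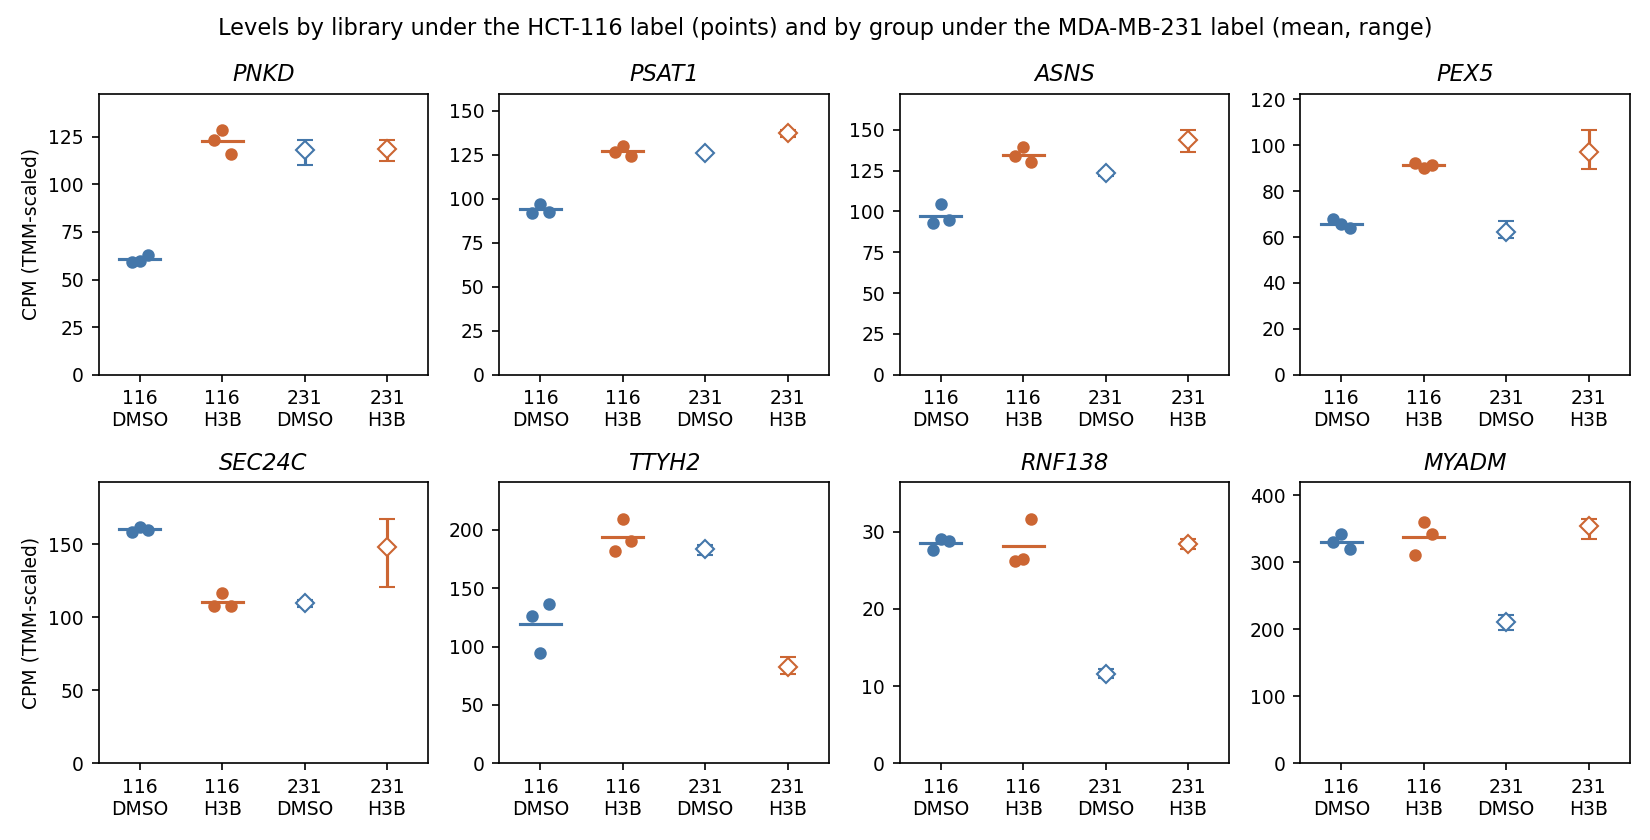
Levels (CPM, scaled by TMM) of 8 genes, with each library labelled HCT-116 as a point and the group mean as a line, and each group labelled MDA-MB-231 as its mean (diamond) with the range of its 3 libraries; blue is DMSO and orange H3B-8800. For PNKD, PSAT1 and ASNS the HCT-116 DMSO libraries lie below the other 3 groups, for RNF138 and MYADM the MDA-MB-231 DMSO group is the low one, and PEX5 is higher after treatment under both labels.

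The H3B-8800 effect differed between the HCT-116 and MDA-MB-231 labels for 5 of 14234 genes (0.0351%, edgeR test of the difference). For PNKD the difference was 1.01 (SE 0.08, edgeR adjusted p = 6.7e-05) and for SEC24C -0.97 (SE 0.12, edgeR adjusted p = 0.0014) on the log2 scale. The SEC24C difference was larger in size than its HCT-116 effect of -0.53, since SEC24C rose in fitted value under the MDA-MB-231 label. TTYH2 was at 126.3, 94.8 and 136.9 CPM in the HCT-116 DMSO libraries and 182.0, 209.7 and 190.5 CPM in the treated ones, while under the MDA-MB-231 label it fell from 184.1 to 82.9 CPM. Its difference was 1.85 (SE 0.19, edgeR adjusted p = 0.00043), although its HCT-116 effect of 0.70 was not called (SE 0.14, edgeR adjusted p = 0.24). RNF138 (-1.32) and MYADM (-0.72) also differed, and they rose under the MDA-MB-231 label, with HCT-116 effects of -0.02 and 0.03. RNF138, like PNKD, is 1 of the 183 genes at a pair of levels, with the MDA-MB-231 DMSO libraries at 11.1 to 12.2 CPM and the other 9 libraries at 26.2 to 31.7 CPM. What sets those levels was not tested for RNF138 either. Under the MDA-MB-231 label 5 genes were called in all (0.0351%). For PSAT1 and ASNS the difference between the labels was not called (0.31, edgeR adjusted p = 0.18, and 0.25, edgeR adjusted p = 0.96), which does not show that their effects were equal.

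PSAT1 and ASNS belong to the integrated stress response, in which the transcription factor ATF4 raises genes for amino acid synthesis, amino acid transport and the charging of tRNA. ATF4 binds with C/EBP partners at elements whose core reads TGATGNAA. Promoters of 300 bases (250 before to 50 after a transcript start, RefSeq, GRCh38.p14) were searched for that core on both strands (TTNCATCA on the other), and no other motif was searched. Of the 28 tested genes of the ATF4 list 24 had a promoter entry, and 8 of these (33.3%) held the core, against 322 of 11291 tested genes with an entry (2.85%). Of 20 cytosolic aminoacyl-tRNA synthetase genes 16 had an entry, and 7 of these (43.8%) held it. The ATF4 list was drawn up as genes of that response, so a high share can follow from that choice alone. It says nothing about the treatment, and AARS1 and CARS1 count in both lists. A match is a description of the letters and not a binding site. The windows of 5 genes with the core are shown because their levels are described here, with the core in capitals. ASNS alone of these was called, and NARS1 holds the core with a log2 fold change of -0.01. The promoters of SARS1 and CTH, like that of PSAT1, did not hold it. They are ASNS (chr7:97872429-97872516, minus strand), AARS1 (chr16:70289646-70289733, minus strand), MARS1 (chr12:57488053-57488082, plus strand), GARS1 (chr7:30594834-30594863, plus strand, at its second start site) and NARS1 (chr18:57621804-57621833, minus strand), each written 5′ to 3′ on the gene's strand. The 100 bases before the start of PSAT1 (chr9:78297025-78297124, plus strand) are given as a promoter without the core.
ASNS: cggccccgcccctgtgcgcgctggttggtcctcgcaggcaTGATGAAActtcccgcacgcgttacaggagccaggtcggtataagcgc
AARS1: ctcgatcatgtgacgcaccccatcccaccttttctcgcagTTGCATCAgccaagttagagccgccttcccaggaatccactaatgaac
MARS1: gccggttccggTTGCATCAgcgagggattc
GARS1: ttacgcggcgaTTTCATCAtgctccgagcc
NARS1: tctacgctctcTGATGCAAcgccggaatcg
PSAT1: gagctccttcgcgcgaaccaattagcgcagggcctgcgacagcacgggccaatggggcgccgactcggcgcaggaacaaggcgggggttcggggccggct

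Of the 28 ATF4 and integrated stress response genes tested, 2 were called higher (PSAT1 and ASNS) and none lower, against 5 of all 14234 called (0.0351%). An unadjusted p under 0.05 was reached by 9 list genes, all higher, against 655 of all 14234. Among the 27 of at least 1 CPM, all treated libraries lay above all controls for 9 (33.3%) and below for 0, against 3.76% above and 3.18% below among 11953 such genes. The list's median log2 fold change was 0.14, against 0 over all genes tested. ATF4 itself was at 182.5, 175.8 and 181.3 CPM in the DMSO libraries and 202.0, 211.0 and 198.0 CPM in the treated ones, groups that did not overlap. Its log2 fold change of 0.18 was not called by edgeR (SE 0.04, adjusted p = 0.36). Other effectors of the response had wide or small differences. DDIT3, the stress-induced factor CHOP, had a log2 fold change of 0.13 (SE 0.18), TRIB3, a pseudokinase that restrains ATF4, -0.26 (SE 0.34), and PPP1R15A, which restores translation, 0.00 (SE 0.05). The list was chosen with earlier results of these data known, so its counts are a description.

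The list of serine, glycine, proline and cysteine synthesis, which also holds the asparagine enzyme ASNS, had the highest share of members above every control. Of 16 tested, 2 were called, against 5 of all 14234 (0.0351%). Those 2 are PSAT1 and ASNS, which the list shares with the one above. All treated libraries lay above all controls for 5 of the 14 members of at least 1 CPM (35.7%), against 3.76% of 11953 such genes. The median log2 fold change was 0.23. The list was added after values were seen and holds 2 of the called genes, so its share and rank are a description. CTH, which makes cysteine from cystathionine, was at 5.85, 4.60 and 5.96 CPM in the DMSO libraries and 8.85, 8.49 and 7.93 CPM in the treated ones (log2 0.62, SE 0.14, edgeR adjusted p = 0.38). PHGDH, the first enzyme of the serine pathway, ran from 78.7 to 90.5 CPM and from 86.7 to 115.7 CPM, so its groups overlapped (0.24, SE 0.09). PSPH, the last enzyme of that pathway, ran from 24.2 to 27.4 CPM and from 29.8 to 41.3 CPM (0.40, SE 0.17). MTHFD2, a mitochondrial folate enzyme, had 0 counts in all 6 libraries, which allows up to 0.0144 CPM.

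The cytosolic aminoacyl-tRNA synthetases, which load amino acids onto tRNA, had 0 of 20 genes called by edgeR. An unadjusted p under 0.05 was reached by 6 of them, all higher, against 655 of all 14234 genes tested. For 6 of 20 (30%) every treated library lay above every control, against 3.76% of 11953 genes, with a median log2 fold change of 0.10. The list was added after values were seen. It shares SARS1, AARS1 and CARS1 with the ATF4 list, so the 2 lists are not separate sets. GARS1, the glycine enzyme, was at 206.3, 223.2 and 206.9 CPM in the DMSO libraries and 255.7, 247.9 and 254.9 CPM in the treated ones (0.25, SE 0.05, edgeR adjusted p = 0.23). MARS1, the methionine enzyme, went from 65.6 to 70.8 CPM to 84.5 to 91.5 CPM (0.36, SE 0.09). Part of its exons overlap DDIT3, so reads of the 2 genes may not be told apart. SARS1, the serine enzyme, was at 98.1 to 108.4 CPM and 112.3 to 126.1 CPM (0.23, SE 0.05), and AARS1, the alanine enzyme, at 355.1 to 399.1 CPM and 399.5 to 493.6 CPM (0.24, SE 0.07). HARS1, NARS1 and LARS1, for histidine, asparagine and leucine, had log2 fold changes of 0.00, -0.01 and -0.03. Of 17 mitochondrial synthetases 0 were called, 0 had an unadjusted p under 0.05, and the median was 0.02.

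**Figure D3:**
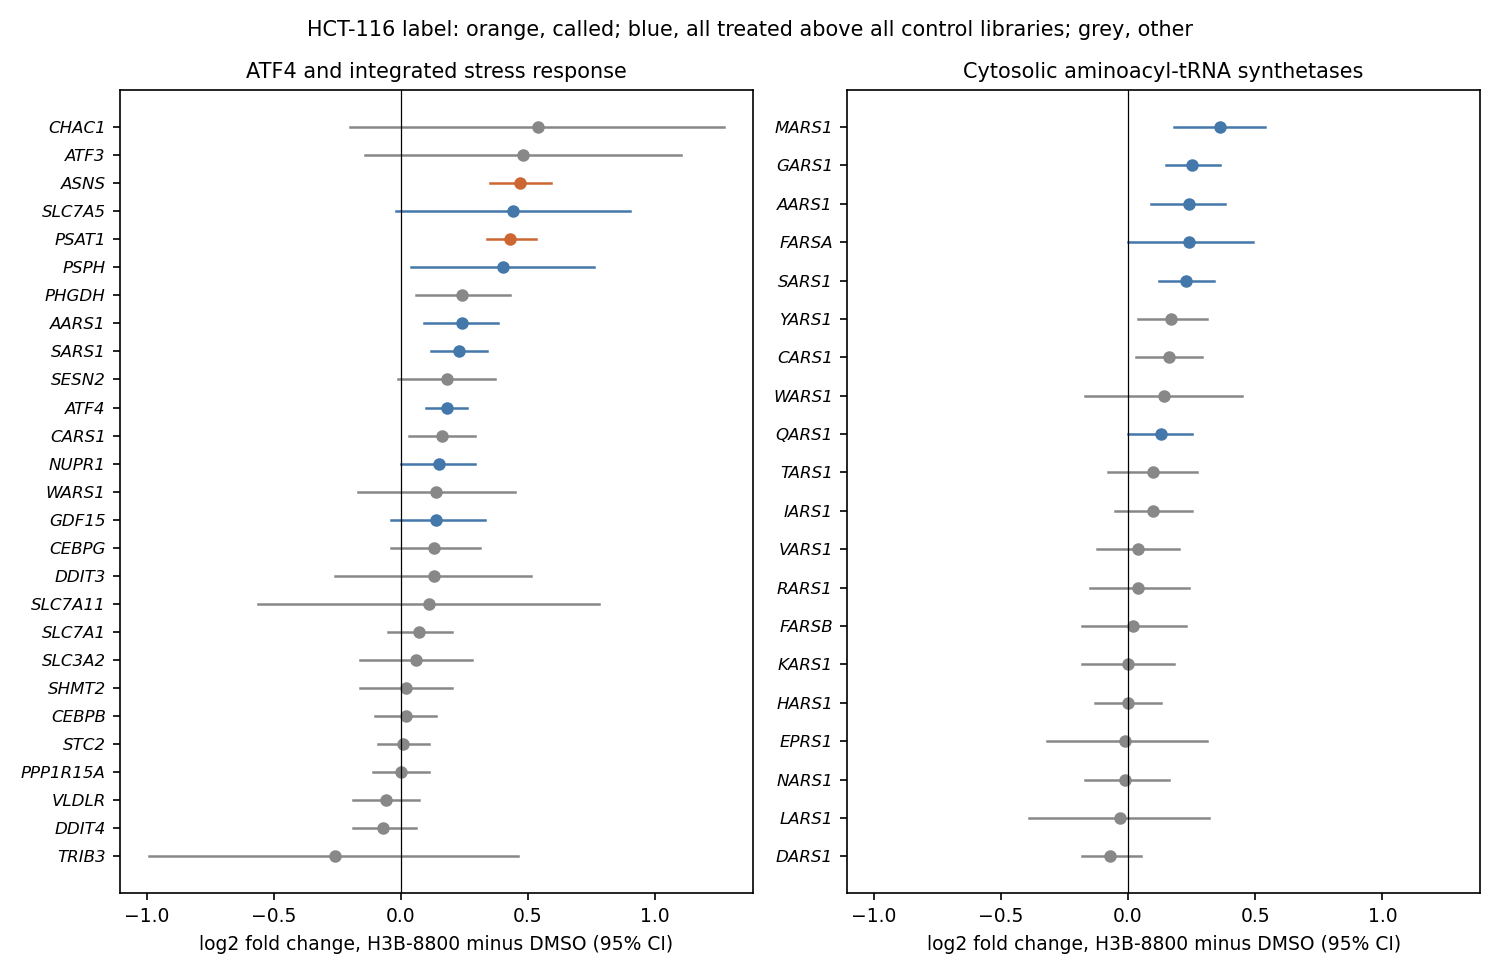
Log2 fold change (H3B-8800 minus DMSO, HCT-116 label) with its 95% confidence interval for the members averaging at least 1 CPM of the ATF4 and integrated stress response list (left) and of the cytosolic aminoacyl-tRNA synthetases (right). PSAT1 and ASNS are the called genes (orange), blue marks genes whose 3 treated libraries all exceed the 3 controls, and TRIB3, CHAC1 and SLC7A11 carry the widest intervals on the left.

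The 13 mitochondrially encoded genes in the table, subunits of the respiratory chain and of ATP synthase, were higher after treatment in fitted value for 13 of 13, but edgeR called 0 of them. An unadjusted p under 0.05 was reached by 11, against 655 of all 14234 genes tested, and the median log2 fold change was 0.24. All treated libraries lay above all controls for only 3 of the 13 (23.1%) and below for 0. Among 11953 genes of at least 1 CPM those shares were 3.76% and 3.18%. MT-ND2, a complex I subunit, was at 1932, 2268 and 1970 CPM in the DMSO libraries and 2287, 2708 and 3031 CPM in the treated ones (0.38, SE 0.08, edgeR adjusted p = 0.36). With the replicate number as a block MT-CYB, the cytochrome b subunit of complex III, was called (0.29, edgeR adjusted p = 0.047, against 0.38 without the block). Without H3B-8800 replicate 1, the treated library with the lowest share, MT-ND2, MT-CO2, MT-CYB and MT-ND1 were called (edgeR adjusted p = 0.01 to 0.031). These transcripts come from 1 genome and share their library, so they are not independent.

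As a share of each library's counts, the mitochondrially encoded genes took 5.94%, 6.72% and 5.98% in the DMSO libraries and 6.47%, 7.50% and 7.74% in the treated ones. The groups overlapped, since the treated library 1 lay below the DMSO library 2. The means were 6.21% ± 0.440 and 7.24% ± 0.677 (SD, n = 3 each), a difference of 1.02 percentage points that was not significant in a two-sided exact permutation test (p = 0.2, where 3 against 3 can reach 0.1). Taken as same-numbered pairs, the treated library was higher by 0.523, 0.780 and 1.76 points (exact sign-flip p = 0.25, the smallest that 3 pairs allow). Under the MDA-MB-231 label the share went from 6.38% to 7.03%, with no overlap (exact permutation p = 0.1). Ribosomal RNAs of the mitochondrion are not among the 13 genes. Nuclear genes of oxidative phosphorylation had a median log2 fold change of 0.00 over 30 genes, with 0 called and 1 at an unadjusted p under 0.05 in each direction.

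**Figure D4:**
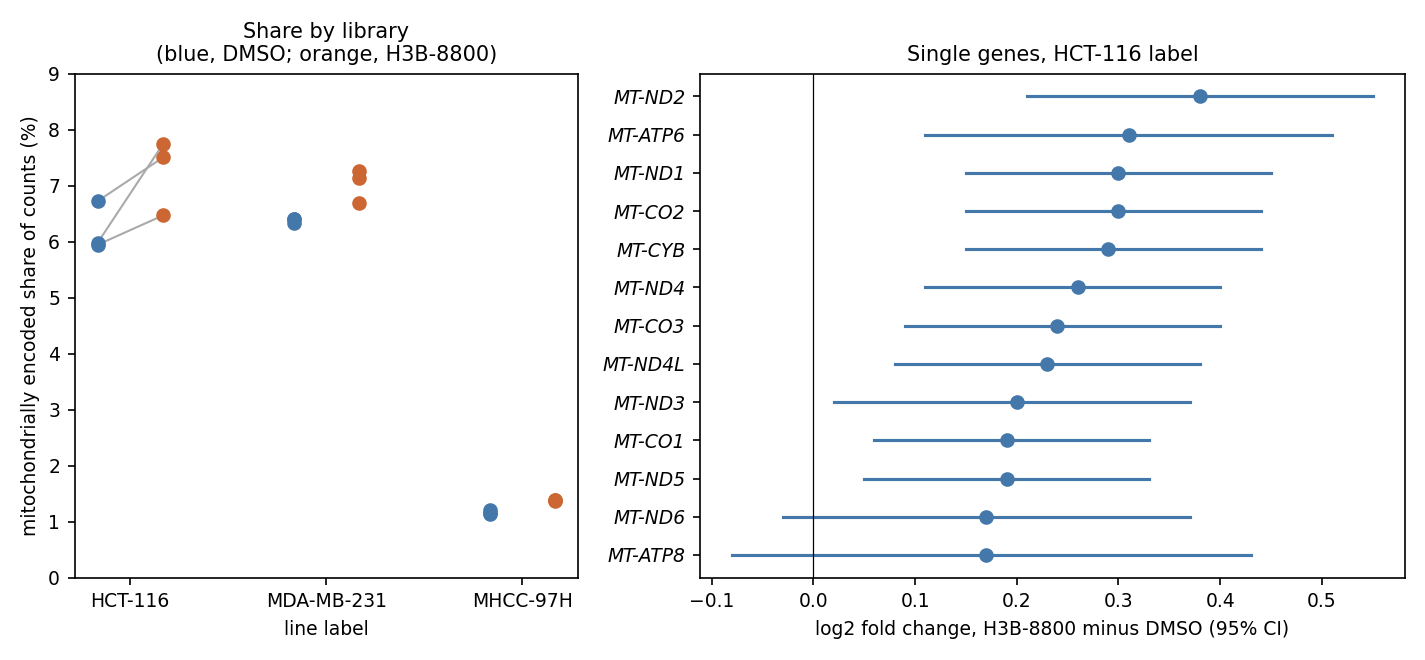
Left, mitochondrially encoded share of counts (%) in each library by line label, DMSO in blue and H3B-8800 in orange, with grey lines joining same-numbered libraries of the HCT-116 label; right, log2 fold change of the 13 genes under that label with 95% confidence intervals. The HCT-116 shares run from 5.94% to 6.72% and from 6.47% to 7.74%, and the intervals of MT-ND6 and MT-ATP8 include 0.

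SLK and ENO1, the genes in the series title, and SF3B1 were not called under the HCT-116 label. SLK was at 165.4, 134.7 and 162.1 CPM in the DMSO libraries and 156.8, 125.2 and 167.8 CPM in the treated ones (log2 -0.04, SE 0.12, 95% confidence interval -0.30 to 0.22). ENO1 was at 4694, 5418 and 4866 CPM and 4717, 5910 and 4707 CPM (0.03, SE 0.21, interval -0.41 to 0.48). SF3B1, the protein that the compound binds, was at 366.1, 260.9 and 358.1 CPM and 351.9, 216.7 and 329.6 CPM (-0.13, SE 0.15, interval -0.46 to 0.20). For all 3 genes the number 2 library of each group stood off from the others, low for SLK and SF3B1 and high for ENO1. SF3B1 was lower after treatment in 3 of 3 same-numbered pairs, and with the replicate block its log2 fold change was -0.15 (edgeR adjusted p = 0.62). The block gave an edgeR adjusted p of 0.96 for SLK and 0.94 for ENO1. The intervals above come from the fit without the block.

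Glycolysis had 0 of 26 genes called by edgeR, 0 at an unadjusted p under 0.05, and a median log2 fold change of 0.00, with 13 positive and 13 negative. GAPDH was at 9439 to 10710 CPM in the DMSO libraries and 9723 to 12010 CPM in the treated ones, and LDHB, a lactate dehydrogenase subunit, at 811.8 to 854.9 CPM and 692.0 to 890.8 CPM. Under the MHCC-97H label 23 of the 26 genes were called lower and 2 higher, against 2091 lower (14.7%) and 1831 higher (12.9%) of all 14234, with TMM scaling. These counts were not run with other scalings. The effect differed between the HCT-116 and MHCC-97H labels for 13 of the 26, against 1878 of all 14234 (13.2%), a count that fell to 322 without HCT-116 DMSO replicate 3. ENO2, the neuronal enolase, had effects of -0.03 and -1.57, a difference of 1.54 (SE 0.10, edgeR adjusted p = 5.2e-07). ENO1 differed by 1.08 (SE 0.29, edgeR adjusted p = 0.032) and SLK by -0.83 (SE 0.17, edgeR adjusted p = 0.016).

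Over all genes, the effect differed between the HCT-116 and MHCC-97H labels for 1878 of 14234 (13.2%), 880 with the higher value under the HCT-116 label (46.9%). That share was 31.6% of 1618 with relative log expression scaling, 27% of 1586 with upper-quartile scaling and 8.75% of 1818 with library totals. The count was 3320 with the replicate block and 920 after a trend on GC content and length was removed. It fell to 345 without HCT-116 DMSO replicate 1, to 322 without DMSO replicate 3 and to 847 without H3B-8800 replicate 2, and rose to 2841 without DMSO replicate 2. ATF4 had effects of 0.18 and -0.22 (difference 0.40, SE 0.05, edgeR adjusted p = 0.0029), and 10 of the 28 ATF4 list genes differed. DLD, a shared subunit of mitochondrial dehydrogenases, had effects of 0.04 and 1.24 (difference -1.21, SE 0.09, edgeR adjusted p = 4.2e-06). The median effect over all genes tested was -0.06 under the MHCC-97H label.

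Splicing factors showed no call under the HCT-116 label. Of 22 SF3b and U2 particle genes edgeR called 0, with 1 at an unadjusted p under 0.05 and a median log2 fold change of 0.06. All treated libraries lay above all controls for 3 of the 22 (13.6%) and below for 0. Among 11953 genes of at least 1 CPM those shares were 3.76% and 3.18%. SUGP1, a splicing factor that works with SF3B1, had the smallest p of that list, at 20.5 to 22.5 CPM and 23.4 to 26.8 CPM (0.24, SE 0.10, edgeR adjusted p = 0.99). Of 32 core spliceosome genes, 21 SR proteins and their kinases, 24 hnRNPs and 16 factors of nonsense-mediated decay, which destroys transcripts with early stop codons, edgeR called 0, with 1, 1, 0 and 0 at an unadjusted p under 0.05. Of 16 genes reported to respond to SF3B1 modulators edgeR called 0. Their log2 fold changes ran from -1.52 to 0.18, with 10 positive and 6 negative. Among them MCL1, an apoptosis inhibitor, had a log2 fold change of 0.00 (SE 0.05). BCL2L1, its relative BCL-XL, had 0.16 (SE 0.07, edgeR adjusted p = 1.0).

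In 25 p53 target genes tested edgeR called 0, with 1 at an unadjusted p under 0.05 in each direction. MDM2, the ligase that degrades p53, was at 15.7, 9.98 and 18.8 CPM in the DMSO libraries and 22.8, 30.6 and 61.4 CPM in the treated ones. The groups did not overlap, but the treated libraries differed widely, and the log2 fold change of 1.37 was not called (SE 0.48, edgeR adjusted p = 0.94). CDKN1A, the cell cycle inhibitor p21, was at 71.2, 78.3 and 70.5 CPM and 26.8, 78.1 and 69.8 CPM, so 1 treated library stood apart. Of 30 mitosis and 30 DNA replication genes 0 were called by edgeR, with medians of 0.01 and 0.02 and with 2 and 0 genes at an unadjusted p under 0.05. CDK1, the kinase that starts mitosis, had a log2 fold change of -0.19 (SE 0.08).

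Other lists gave medians near 0. The 44 cytosolic ribosomal proteins had a median log2 fold change of -0.01 with 0 called by edgeR and 1 at an unadjusted p under 0.05, while 34 of 44 were called lower under the MHCC-97H label, against 14.7% of all genes tested, with TMM scaling alone. The unfolded protein response of the endoplasmic reticulum (22 genes) had 0.02, the heat shock proteins (16 genes) 0.00, the hypoxia-inducible genes (22 genes) -0.03 and the NRF2 targets (20 genes), which answer oxidative stress, 0.03. None of these 4 lists had a called gene by edgeR, and 1, 0, 2 and 0 of their genes had an unadjusted p under 0.05. The summed level of the intestinal markers was 8871 to 9382 CPM in the DMSO libraries and 8997 to 10170 CPM in the treated ones. The summed mesenchymal markers were at 18420 to 19290 CPM and 17770 to 18360 CPM, and the liver markers at 312.9 to 320.7 CPM and 269.9 to 308.6 CPM. These sums rest on their most abundant members. Mean FN1 went from 9486 to 8763 CPM and CAV1 from 5706 to 5974 CPM, and TF of the liver list from 179.6 to 152.4 CPM. Fitted changes were positive for 8 and negative for 10 intestinal genes tested. They were positive for 7 and negative for 8 mesenchymal genes, and positive for 6 and negative for 8 liver genes, with 0 called in each list. The part of these differences in the other results was not tested.

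**Figure D5:**
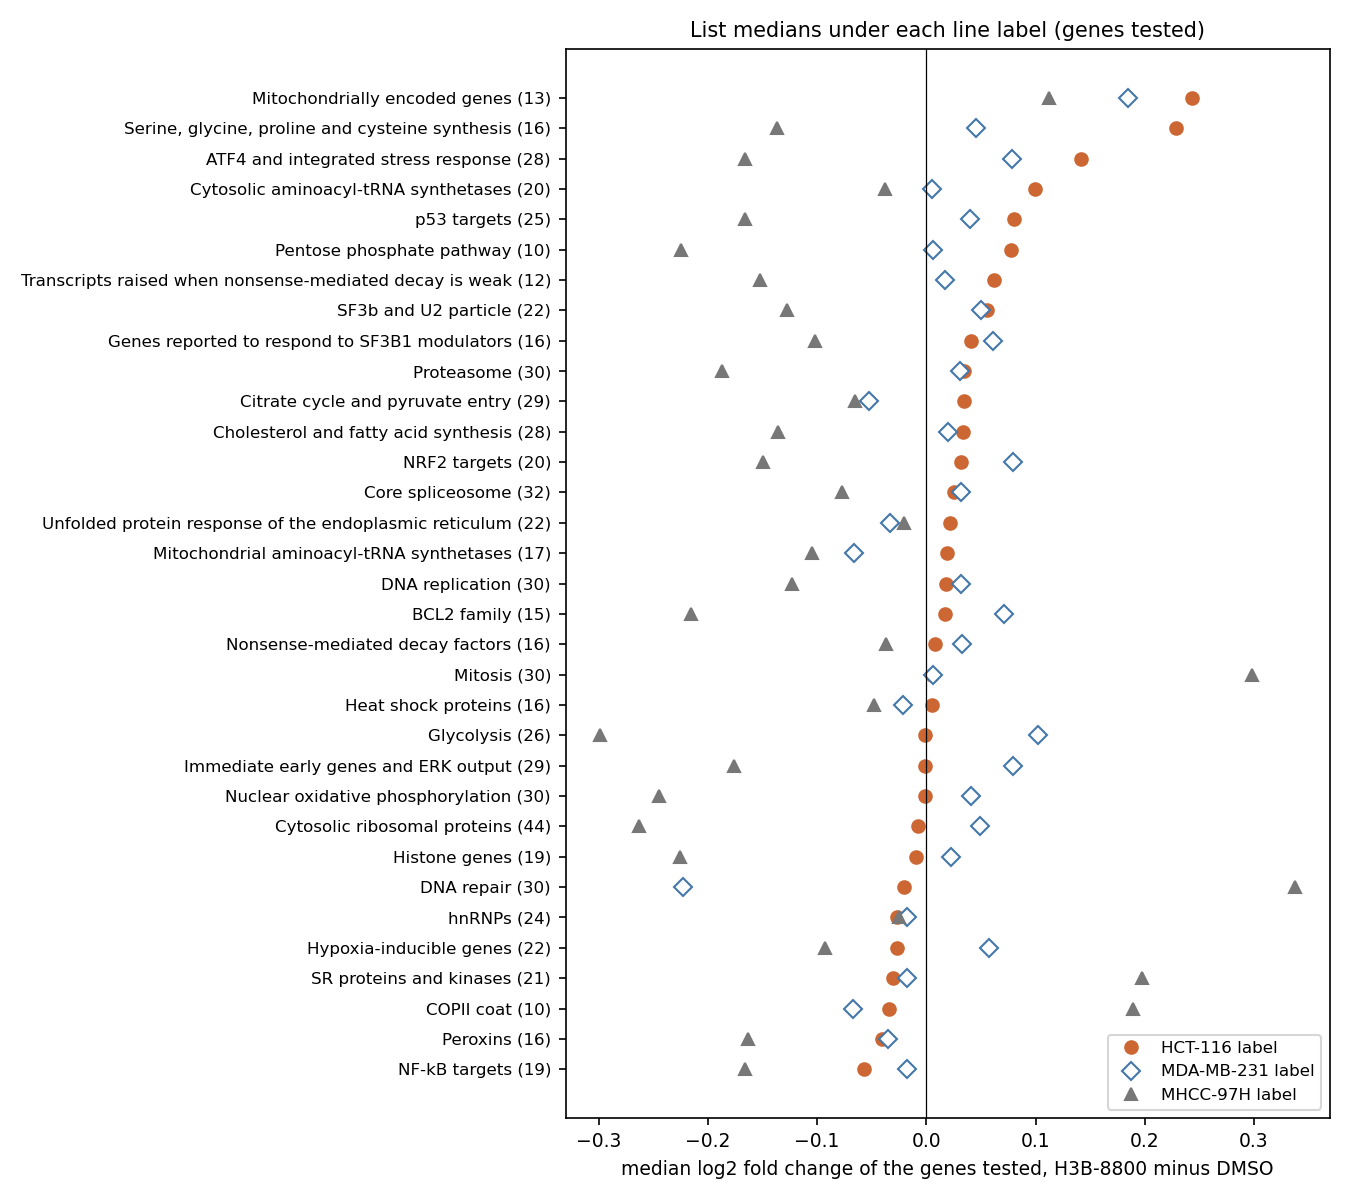
Median log2 fold change (H3B-8800 minus DMSO) of the genes tested in each list, with the number of genes in parentheses, under the HCT-116 (orange), MDA-MB-231 (blue diamonds) and MHCC-97H (grey triangles) labels. The highest HCT-116 medians are those of the mitochondrially encoded genes, amino acid synthesis, the ATF4 list and the cytosolic synthetases, at 0.10 to 0.24, and the other lists plotted lie between -0.06 and 0.08. The cell type marker lists are not plotted; the liver markers (14 genes tested) had -0.08 and the blood and endothelial markers (5 genes tested) -0.15.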

How the data were processed

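RNA sequencing was deposited as 1 table of counts, which the authors made as whole-number read counts per Ensembl gene not normalized. Per the submitters' processing notes, fastp and HISAT2 were used with GRCh38. Tool versions, how reads were counted and the strand setting were not given in the sources used here. GENCODE release 29 matched 20224 of 20263 genes. All comparisons used 1 fit over the 18 libraries with 1 mean per group in edgeR 4.0.16 (R 4.3.3): filterByExpr by group, TMM scaling, estimateDisp, robust quasi-likelihood F test, Benjamini-Hochberg adjustment over 14234 genes, called under 0.05. Alternatives changed the scaling, filter, libraries, block or tool (DESeq2 1.42.0, limma 3.58.1 voom). No column was left unused. CPM values are scaled by TMM, except those of cell type markers, which are relative to the plain library total. The procedure was run on simulated counts with the same spread setting for every gene. That setting is simpler than these data, so the run is no support for single calls here.

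The genes, the 34 lists and the tests were chosen with earlier results of these data known, and 4 whole-family lists (cytosolic and mitochondrial synthetases, amino acid synthesis, COPII coat) were added after values were seen. Lists received no test. Genes named were SLK, ENO1 and SF3B1, every called gene, up to 4 members of each list by smallest p, uncalled genes of smallest p, and genes called in the comparisons with other labels. CERS2, CDKN1A, HARS1, NARS1, LARS1, TRIB3, CHAC1, SLC7A11, PPP1R15A, MCL1, PHGDH, PSPH, MTHFD2, MT-ND6, MT-ATP8, SLC16A1, PRSS23 and MED29 lie outside that rule and were chosen after their values were seen, as were markers picked from the fixed list.

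Whether same-numbered libraries pair was checked on each gene's deviation from its group mean (11953 genes). Correlated in this way, same-numbered HCT-116 libraries gave 0.17, 0.38 and 0.14, all over 0.1, so the numbers were taken as possible pairs, although control 1 gave 0.19 with treated library 3. No label states what the number stands for. No 2 libraries of a group agreed within sampling noise (chi-square per degree of freedom 22.3 to 61.8).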

Additional observations from a re-analysis of the deposited data

Results flagged for a closer look

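Results are listed here where a test of the difference between line labels called them. Between the HCT-116 and MDA-MB-231 labels, the H3B-8800 effect differed for TTYH2 (1.85 on the log2 scale), PNKD (1.01), RNF138 (-1.32), SEC24C (-0.97) and MYADM (-0.72), each as the HCT-116 effect minus the other. In RNF138 and MYADM the HCT-116 groups overlapped and the MDA-MB-231 DMSO group was the low one.

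Between the HCT-116 and MHCC-97H labels the effect differed for 1878 genes. Among the genes named, the higher value was under the HCT-116 label for ENO2 (1.54), PNKD (1.39), ENO1 (1.08), LDHB (0.92), HSPA1A (0.50) and ATF4 (0.40). It was under the MHCC-97H label for DLD (-1.21), IDH1 (-1.09), ACO1 (-1.05) and SLK (-0.83). IDH1 and ACO1 handle isocitrate in the cytosol, and their HCT-116 effects were -0.01 and -0.08.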

How the results depend on the processing

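The 5 calls under the HCT-116 label became 3 in a fit of the 12 libraries labelled HCT-116 or MDA-MB-231, 1 in a fit of the 6 libraries with or without the replicate block, 22 with DESeq2, and 3 to 15 when 1 library was left out. The replicate block over all libraries gave 5. Calls of at least 1 in size, 1 in the reported fit, became 0 with library totals, after the trend on GC content and length was removed, with glmTreat against a log2 fold change of 1 and without the genes at a pair of levels (an alternative chosen after seeing the data), 10 with DESeq2, and 1 to 4 with a library left out. The difference from the MDA-MB-231 label (5) became 26 with DESeq2 and 5 to 9 with a library left out, 9 without DMSO replicate 3. The difference from the MHCC-97H label (1878) became 3320 with the replicate block, 920 after the trend was removed, and 322 to 2841 with a library left out. DMSO libraries between labels (5) gave 23 with DESeq2 and 8 with limma voom. Treated libraries between labels (1) gave 30 with DESeq2, 2 with limma voom, 2 after the trend was removed, and 1 to 4 with a library left out, 4 without H3B-8800 replicate 3. The cause of these shifts was not tested. None of the 5 called genes changed direction under any alternative run. Without DMSO replicate 1 or H3B-8800 replicate 2 the 1 call of at least 1 in size was not PNKD, and in the latter it was a lower one. For the 5 called genes, 80 of the gene-by-alternative results kept the call and 24 lost it. Fewer samples remain in the fits of 6 or 12 libraries and in the leave-one-out fits.

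Over genes tested, log2 fold change correlated with GC content at rho 0.18 and with exonic length at -0.12 (14223 genes). The mitochondrially encoded share restricted to coding genes was not run apart, since the table holds coding genes alone. At 32118665 counts or more per library the median SE of genes of at least 10 CPM was 0.1 on the log2 scale, and a count of 0 over the 6 libraries allows up to 0.0144 CPM, for counting error only.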

Other observations

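Uncalled genes with the smallest p under the HCT-116 label included RBM3, a cold-induced RNA-binding protein, at 147.3, 156.1 and 146.3 CPM in the DMSO libraries and 171.2, 180.2 and 167.3 CPM in the treated ones (log2 0.21, SE 0.04, edgeR adjusted p = 0.38). MRPL30, a protein of the mitochondrial ribosome, was at 25.4 to 26.3 CPM and 30.6 to 31.4 CPM (0.26, SE 0.06, edgeR adjusted p = 0.38). HILPDA, a lipid droplet protein induced by hypoxia, was lower, at 74.5 to 76.7 CPM and 57.5 to 67.7 CPM (-0.24, SE 0.05, edgeR adjusted p = 0.38). The treated and control libraries did not overlap for any of the 3. They were picked by their small p in this same comparison, so that separation is no added support. Among 11953 genes of at least 1 CPM, all treated libraries lay above all controls for 3.76% and below for 3.18%.

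Of the 183 genes at a pair of levels among the 12 libraries, 85 had 1 library apart from the other 11, and 58.5% shared exonic bases with another annotated gene, against 50.1% of all 8863 genes considered. SLC16A1, a lactate transporter, was at 75.7, 21.3 and 73.6 CPM in the HCT-116 DMSO libraries and 66.3, 57.3 and 71.7 CPM in the treated ones. PRSS23, a serine protease, was at 91.3, 96.2 and 93.7 CPM and 90.5, 16.9 and 15.4 CPM. MED29, a Mediator subunit, was at 8.3, 71.4 and 6.8 CPM and 52.9, 71.7 and 65.1 CPM. These genes were chosen after their values were seen.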
